A study of Mus musculus with 15 samples.

Results

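Chromosome 13 was represented by 1673 of the 42404 distinct probes of a mouse comparative genomic hybridisation array, chosen by position alone as every non-control probe placed on that chromosome. The probes ran from position 3489596 to 120274738, a median of 28.5 kb apart, and the widest stretch without one measured 2742 kb. They were read as 307 distal probes that start at or beyond 99 Mb and the remaining 1366. That border was set with the results of one tumour, HCC 5, already known, so the contrast of both parts in HCC 5 is given here as a description.

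The arrays compared 5 hepatocellular carcinomas (HCC) and 3 unaffected livers of 3 mice, in a search for chromosomes gained or lost in liver tumours. All mice were Mad2(f/f), carried Albumin-Cre, which is active in hepatocytes as the liver develops, and were of a mixed C57BL/6.129 background. Mouse 3151, a female of 16.4 months that was p53(f/+), gave unaffected liver 1 with HCC 1 and HCC 2. Mouse 3760, a p53(f/f) male of 13.8 months, gave unaffected liver 2 with HCC 3. Mouse 4033, a p53(f/f) male of 13.9 months, gave unaffected liver 3 with HCC 4 and HCC 5. Unaffected livers carried the same floxed alleles and Cre as the tumours and were not wild type. Every tissue was set against liver DNA of a C57BL/6.129 animal of the opposite sex, wild type per the study's methods. Per the study, tumour samples can hold normal tissue and cells that escaped recombination. The share of cells that lost a chromosome and the number of copies lost per cell cannot be told apart in such DNA. Arrays of DNA hold no expression values by which the labelled tissue could be checked.

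Mad2, the product of Mad2l1, holds the anaphase-promoting complex in check until every chromosome is attached to the spindle. Cells without it can enter anaphase with unattached chromosomes, and whole chromosomes are then gained or lost. A chromosome can also break, which leaves one arm part at another copy number than the rest. Mouse chromosome 13 is acrocentric, with its centromere at the low end of the map. It carries clustered families (histone, prolactin, serpin B, cathepsin and vomeronasal receptor genes) besides single genes of cell division, DNA repair and growth control such as Ccnb1, Cenph, E2f3, Xrcc4, Mef2c, Map3k1 and Pik3r1.

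Values are log2 ratios of tissue over reference DNA, centred on the autosomal median of each array, and the level of a region was the mean of its probes. In the unaffected livers chromosome X, which differs by 1 copy between the sexes, had a mean absolute level of 0.89 (n = 3). Probe noise, taken from differences of neighbouring autosomal probes, ranged from 0.084 in unaffected liver 3 to 0.20 in HCC 3. HCC 3 was measured on 1 array and all other tissues in both dye orientations. Levels of chromosome 13 and of its parts differed between orientations by 0.00052 to 0.089.

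Probes that carry the results were printed as the files list them, in lower case with no base marked. Most probes were 60 bases long (1404 of 1673), and the shortest had 45. All 8 probes that lay whole in a RefSeq promoter window of GRCm38.p6 read along the plus strand. The files name no genome build, and of 1084 probes whose gene has a GRCm38.p6 position only 115 lay inside it, so positions are those of the array design and no exon or intron is assigned. The following pair flanked the step in HCC 5, the last probe before it (chr13:98748065-98748124, named Rgnef, now Arhgef28) and the first after it (chr13:98983461-98983520, no gene name).
Rgnef: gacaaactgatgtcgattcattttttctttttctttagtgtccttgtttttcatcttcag
no gene name at the step: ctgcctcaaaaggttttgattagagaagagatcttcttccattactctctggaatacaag

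Another 5 probes are shown as examples of single positions that differed widely between mice, chosen after their values were seen. They were AK173092 (chr13:96787141-96787200), a probe without a gene name (chr13:82879553-82879612), Mef2c (chr13:83767983-83768042), Paip1 (chr13:120238704-120238763) and AB032200 (chr13:113991253-113991312), which the files describe as the mRNA of granzyme K. Their base composition was ordinary for the chromosome. G and C made up 35.0% to 38.3% of their bases, against a median of 36.7% over the chromosome.
AK173092: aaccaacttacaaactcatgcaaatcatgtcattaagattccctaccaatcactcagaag
no gene name before Mef2c: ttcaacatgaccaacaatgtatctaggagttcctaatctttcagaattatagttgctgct
Mef2c: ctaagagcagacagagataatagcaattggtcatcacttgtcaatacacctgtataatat
Paip1: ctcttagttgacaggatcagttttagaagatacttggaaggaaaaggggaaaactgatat
AB032200: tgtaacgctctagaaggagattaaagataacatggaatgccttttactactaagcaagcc

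Chromosome 13 was low in HCC 3 and HCC 5 and near or above the livers in HCC 1, HCC 2 and HCC 4. Its level was -0.49 in HCC 5 and -0.31 in HCC 3, and 0.03, 0.10 and 0.11 in HCC 1, HCC 2 and HCC 4. Unaffected livers 1 to 3 had levels of -0.03, -0.06 and -0.01. With centring on the autosomal median, both low tumours lay below all 3 livers and the other 3 above them, so HCC lay on both sides of the livers. HCC averaged -0.11 ± 0.28 (SD, n = 5) and the livers -0.03 ± 0.02 (SD, n = 3). The difference of -0.08 (SE 0.13) was smaller than the spread between tumours (limma over 19 autosomes, adjusted p = 0.704, exact permutation p = 0.696, two-sided, 56 splits whose smallest p is 0.0179). In the same fit limma called 1 of 19 autosomes (5.26%), and chromosome 13 was not that one. Without HCC 5 the difference was 0.02, so its sign rested on that tumour.

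The order by mouse did not follow the group either. Mouse 4033 gave both a tumour above its liver and the lowest tumour of the series. Relative to unaffected liver 3, HCC 4 was at 0.13 and HCC 5 at -0.48, so tumours of one liver differed by 0.61. In mouse 3151, HCC 1 lay 0.06 and HCC 2 0.13 above unaffected liver 1. HCC 3 of mouse 3760 was at -0.25 relative to unaffected liver 2. Scan days moved with these values, since both low tumours were scanned on day 1 and the other 3 on day 2. The difference was -0.37 within day 1 (limma adjusted p = 0.0505) and 0.11 within day 2 (limma adjusted p = 0.796), which held 1 liver, and the part of the scan day in it was not tested.

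Among the 19 autosomes, counted from the lowest, chromosome 13 ranked 1 in HCC 3 and 2 in HCC 5, but 9 in HCC 1 and 13 in both HCC 2 and HCC 4. Within HCC 3 the next autosome lay at -0.28, close to its -0.31. In HCC 5 only Chr10 was lower, at -0.55. The study scored a whole-chromosome event at an absolute level of 0.3. By that mark chromosome 13 was counted as lost in 2 of 5 HCC and gained in 0, where 15.8% of the 95 autosome levels of the HCC were at or below -0.3 and 21.1% at or above 0.3. Across 7 ways of processing HCC 5 stayed below the mark, from -0.74 to -0.42. HCC 3 ran from -0.32 to -0.29 and dropped out of the count when arrays were centred on all probes or on the mode, the most common log2 ratio. Mode centring moved the arrays of HCC 5 by 0.22 and 0.29 and those of HCC 1 by 0.12 and 0.10. HCC 1 was then at -0.08, below unaffected livers 1 to 3 at -0.03, -0.07 and -0.01. The sign of its level and its side of the livers thus depended on the centring. Unaffected livers 2 and 3 also ranked 2 from the lowest, although their levels were small.

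**Figure D1:**
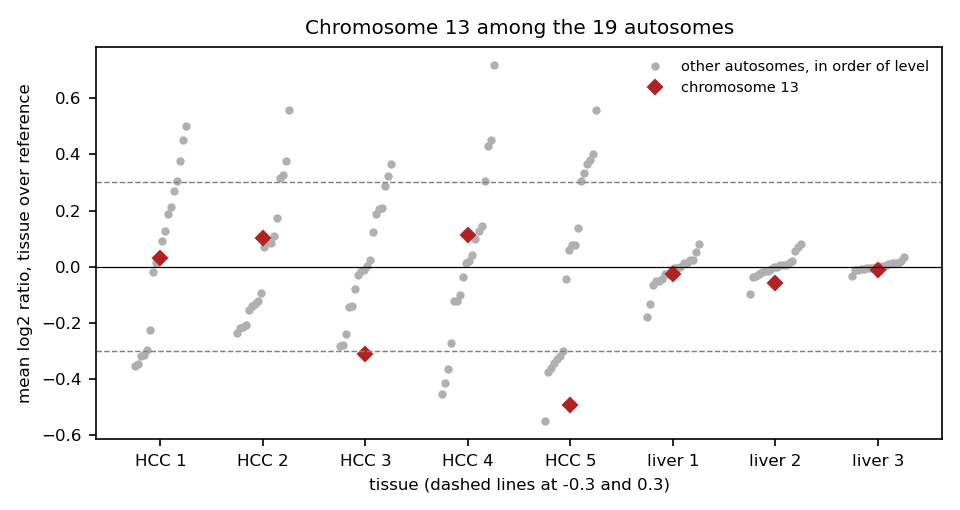
Mean log2 ratio (y axis) of chromosome 13 (red diamonds) and of the other autosomes in order of level (grey points) in each tissue (x axis), with dashed lines at -0.3 and 0.3. Chromosome 13 is lowest in HCC 3 at -0.31 and next to lowest in HCC 5 at -0.49, and lies between -0.06 and 0.11 in the other tissues.

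In HCC 5 the low level did not hold over the whole chromosome. Before 99 Mb its level was -0.56 and from 99 Mb on it was -0.19, a step of 0.37 upwards towards the distal end. The forward array gave a step of 0.36 and the dye-swap array 0.39. For HCC 1 to 4 the same contrast was 0.042, 0.0056, -0.0026 and -0.021, and for the livers 0.0040, 0.015 and -0.0040. HCC 3, the other low tumour, was thus as low in the distal part (-0.31) as in the rest (-0.31). Because the border came from HCC 5, its step stands here as a description without a test.

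Neither part separated the groups. Before 99 Mb, HCC 1 to 5 had levels of 0.02, 0.10, -0.31, 0.12 and -0.56, and unaffected livers 1 to 3 had -0.03, -0.06 and -0.01. The difference of means was -0.09 (exact permutation p = 0.696, Benjamini-Hochberg adjusted over 3 values 0.804), and without HCC 5 it was 0.02. From 99 Mb on the level was 0.07, 0.11, -0.31, 0.10 and -0.19 in HCC 1 to 5 and -0.02, -0.05 and -0.02 in the livers. That difference was -0.02 (exact permutation p = 0.804, adjusted 0.804). It was 0.05 without HCC 3 and 0.02 without HCC 5. Distal minus rest differed by 0.07 between groups, and by 0.00092 without HCC 5, which set the border, so its p-value is not printed. It was among the 3 values of the adjustment. Both parts were cut at the same border with HCC 5 among the tissues, so their p-values are not free of that choice. With arrays centred on the mode, the distal level of HCC 5 was -0.44 and that of HCC 3 -0.29, so HCC 5 passed -0.3 there too and the order of these tumours turned, whereas the step of 0.37 in HCC 5 kept its size. The group difference was then -0.13 for the chromosome and -0.073 for the distal part.

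**Figure D2:**
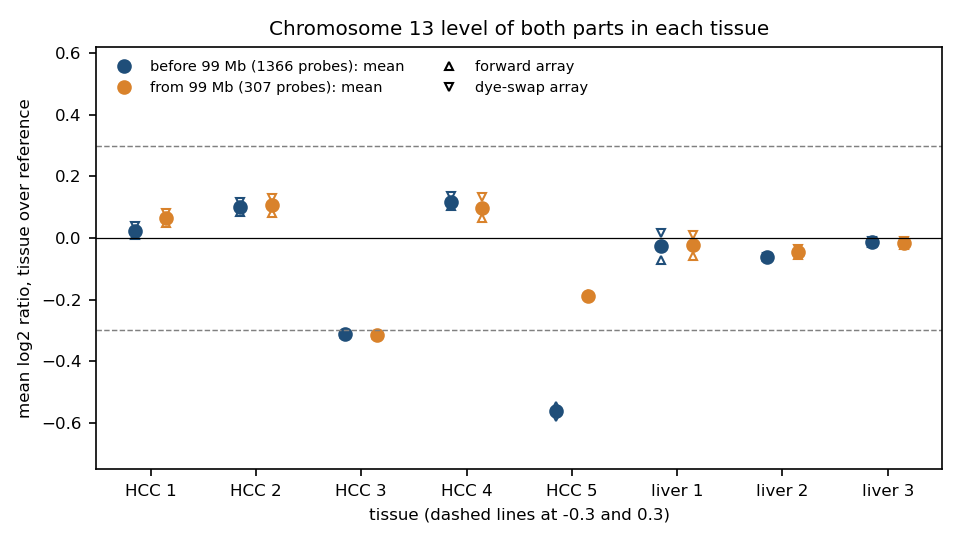
Mean log2 ratio (y axis) of the 1366 probes before 99 Mb (blue) and the 307 probes from 99 Mb on (orange) in each tissue (x axis), as the mean of the arrays (filled points) and in each array (triangles, forward up and dye swap down). Both parts of HCC 3 lie at -0.31, whereas HCC 5 has -0.56 before and -0.19 beyond the border.

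Windows of 10 Mb showed how even each level was. Over the 9 windows before 90 Mb, HCC 5 ran from -0.64 to -0.52 and HCC 3 from -0.39 to -0.28. The windows from 100 Mb on with at least 20 probes held -0.19 and -0.18 in HCC 5, outside its range before 90 Mb, and -0.38 and -0.29 in HCC 3, inside it. HCC 4 ran from 0.05 to 0.14 over all 12 windows, HCC 2 from 0.05 to 0.17 and HCC 1 from -0.01 to 0.13. Unaffected livers stayed between -0.11 and 0.01. The -0.64 of HCC 5, the 0.05 of HCC 4 and the -0.11, in unaffected liver 3, were those of the window from 80 to 90 Mb. Its 56 probes include the Mef2c probe and the one without a gene name before it, both far below the rest in mouse 4033. These extremes thus lean on single probes. No window of HCC 1, HCC 2 or HCC 4 reached 0.3 on either side.

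Counts of single probes describe the same values as the levels. Probes of a tissue are no replicates, and the split of HCC 5 uses the border drawn from it, so the counts add no support. More than 0.3 below its own liver lay 1339 of the 1673 probes in HCC 5, or 80.0%, where 26.8% of all autosomal probes did. Of these 1299 were among the 1366 probes before 99 Mb and 40 among the 307 distal ones. In HCC 3 the count was 767, or 45.8%, against 15% of autosomal probes, with 145 of 307 in the distal part. The shares were 7.59% in HCC 1, 2.93% in HCC 2 and 3.47% in HCC 4, each under its background of 21.1%, 12.4% and 19.7%. More than 0.3 above its own liver lay 15.6%, 17.5% and 18.2% of the probes in these 3 tumours, under the 23.6%, 20.1% and 17.7% of autosomal probes in HCC 1 and HCC 2 and about level with it in HCC 4. The share was 1.91% in HCC 3 and 0.0598% in HCC 5, where 15.1% and 25.1% of autosomal probes were that high.

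Each HCC was also segmented against the liver of its own mouse. For HCC 5 these are the values in which the border was first seen, so its deep step is again a description. HCC 1 to 4 gave 1 segment each over the whole chromosome, at 0.06, 0.13, -0.25 and 0.13. HCC 5 gave 3. The penalty grows with the probe noise of a tumour against its liver. That noise was 0.12 in HCC 5 and 0.20 to 0.26 in HCC 1 to 4, so small steps are found more easily in HCC 5. The proximal segment (chr13:3489596-45649646, 599 probes) was at -0.52 and the middle one (chr13:45652289-98748124, 766 probes) at -0.57. The distal segment (chr13:98983461-120274738, 308 probes, 21.3 Mb) was at -0.17. Genes at the ends were AK135987 and Atxn1, the ataxin 1 gene, at the shallow step, and Rgnef at the deep one. The shallow step was found in neither dye orientation alone. The deep step was found in both, at the same probes on the forward arrays and between 99126647 and 99202737 (Foxd1 and BC059100) on the dye-swap arrays.

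At the border itself, HCC 5 averaged -0.48 ± 0.17 (SD over 10 probes) relative to its liver over the 10 probes before the step and -0.20 ± 0.16 over the 10 from it on. These stretches overlapped probe by probe, from -0.76 to -0.16 before and from -0.50 to -0.02 after. Against the reference the last Rgnef probe before the border read -0.65 in HCC 5. The first probe after the step, without a gene name, read -0.30, and the next ones, for Utp15, a ribosomal RNA processing factor, read -0.43 and -0.15. In HCC 4, the other tumour of that mouse, the 4 probes read 0.09, -0.21, -0.13 and 0.16. Single probes on either side of the border overlapped, so its position rested on runs of probes.

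HCC 5 had a breakpoint on 8 of 19 autosomes, and 3 of these had a step of at least 0.2 between stretches of at least 20 probes. Chromosome 13 had the largest of the 3, at 0.40, ahead of Chr10 at 0.25 and Chr9 at -0.22. HCC 1, HCC 2 and HCC 3 had such steps on other autosomes, as on Chr1 of HCC 2 at -0.54, and HCC 4 had 0. None of these lay on chromosome 13. HCC 5 had the lowest noise against its liver, so its count of breakpoints is not compared with those of the other tumours.

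**Figure D3:**
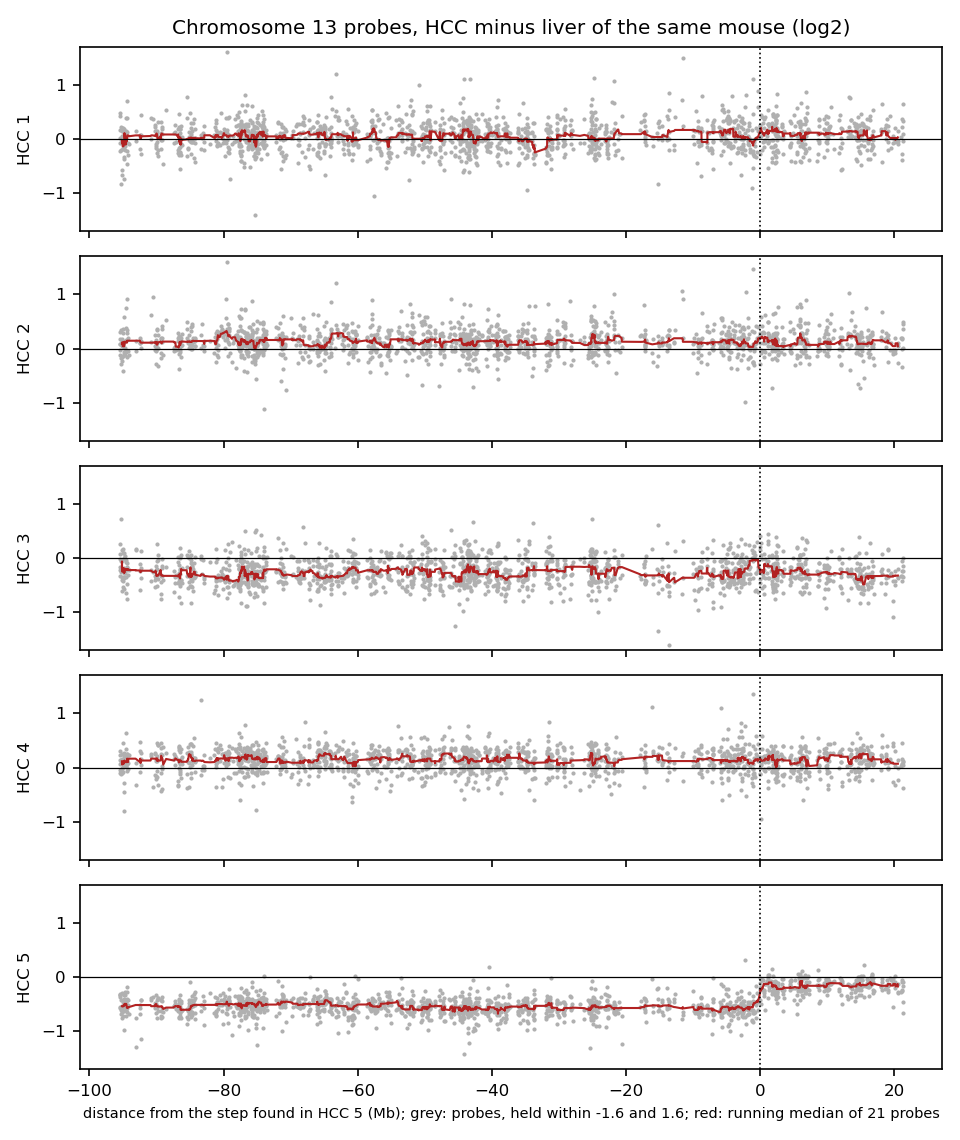
Log2 ratio of each HCC minus that of the liver of the same mouse (y axis) for every chromosome 13 probe, by distance in Mb from the step in HCC 5 (x axis, dotted line at 0), with points held within -1.6 and 1.6 and a running median over 21 probes in red. HCC 3 lies below 0 along the whole chromosome (segment mean -0.25), HCC 5 changes from -0.57 to -0.17 at the step, and HCC 1, HCC 2 and HCC 4 lie slightly above 0.

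Probe by probe, no chromosome 13 probe passed limma between 5 HCC and 3 livers, and neither did any other autosomal probe (0% of 40726 at adjusted p below 0.05). At an unadjusted p below 0.05, 1 of 1673 probes was lower in HCC, where 2.06% of autosomal probes were, and 0 were higher, where 5.34% were. All 5 HCC lay below all 3 livers at 9 probes (0.538%), against 3.22% of autosomal probes, and above them at 0, against 5.3%. The median difference was -0.08 over chromosome 13 and -0.0011 over all autosomal probes.

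The 5 probes with the smallest p had differences from -0.41 to -0.33, all with a limma adjusted p of 0.673 to 0.691. They included Tcfap2a (now Tfap2a), the gene of transcription factor AP-2 alpha, and Hrh2, the histamine H2 receptor gene. Tcfap2a (chr13:40811591-40811650) read -0.23, -0.30, -0.54, 0.06 and -0.52 in HCC 1 to 5 and 0.13, -0.02 and -0.03 in the livers. Hrh2 (chr13:54317721-54317772) read -0.15, 0.25, -0.37, -0.33 and -0.53 in HCC and 0.26, 0.06 and 0.08 in the livers. HCC 4 at Tcfap2a and HCC 2 at Hrh2 lay inside the range of the livers, so neither probe separated the groups. The other 3 probes had no gene name.

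Genes of cell division and DNA repair were covered by 56 probes of 27 of the 30 genes listed. None of the 56 passed limma, and 0 had an unadjusted p below 0.05 in either direction. The median difference was -0.06, close to the -0.08 of the whole chromosome. The list splits at the border, with 17 genes before it and 10 beyond. All 17 proximal genes were below -0.3 in HCC 5, with a median of -0.56, and 10 of 17 were in HCC 3. Of all single probes before 99 Mb, 94.9% were that low in HCC 5 and 54.1% in HCC 3, and of all distal probes 11.4% and 56.7%. The proximal counts were near those shares. A gene is the mean of its probes, so counts of genes and shares of single probes are not the same measure, here and for the lists below. Of the distal genes 1 of 10 was below -0.3 in HCC 5 and 1 of 10 in HCC 3, and the median was -0.20 in both. The distal genes include Ccnb1, which encodes cyclin B1, Cenph and Cenpk of the kinetochore, the kinesin Kif2a, and Rad17 of the DNA damage checkpoint. Ccnb1 read -0.25 and Cenph -0.21 in HCC 5.

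In this list the largest differences between group means were those of Cdk20, E2f3, Xrcc4 and Ccnh, all proximal. Cdk20, a cyclin-dependent kinase gene with 1 probe, differed by -0.20 and read -0.23, -0.03, 0.28, -0.34 and -0.58 in HCC 1 to 5. E2f3, which encodes a transcription factor of S phase entry, differed by -0.19 and read -0.19, 0.17, -0.35, -0.15 and -0.44. Xrcc4, a partner of DNA ligase in end joining, differed by -0.19 and read -0.13, 0.03, -0.22, 0.02 and -0.46. Ccnh, which encodes cyclin H, differed by -0.16 and read 0.04, 0.12, -0.48, 0.25 and -0.70. Their ranges over the 3 livers were at most 0.21. HCC 5 alone lay below every liver at all 4, HCC 3 did so at E2f3, Xrcc4 and Ccnh, HCC 1 at Cdk20, E2f3 and Xrcc4, and HCC 4 at Cdk20 and E2f3.

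Genes of growth signalling and of tumours were measured by 77 probes of 38 of 44 listed genes. None passed limma, with 0 at an unadjusted p below 0.05, and the median difference was -0.07. Of 29 genes before the border, 28 were below -0.3 in HCC 5 and 18 in HCC 3, and of 9 beyond it 1 and 7. These stand beside the shares of all probes given above, and nothing is read from the small distal counts. The median was lower in HCC 5 than in HCC 3 before the border (-0.62 and -0.32) and higher beyond it (-0.17 and -0.32), an order that mode centring turns for the distal level. The distal gene below -0.3 in HCC 5 was Pik3r1, the gene of the regulatory subunit of PI3 kinase, at -0.41. Map3k1, a kinase of the MAP kinase cascade, followed at -0.30, and the others ran up to -0.0091 at Itga2, an integrin gene. Named by the size of the difference were Cxcl14, a chemokine gene (-0.24), Foxq1, a forkhead factor gene (-0.22), Edn1, which encodes endothelin 1 (-0.22), and Gadd45g, a stress response gene (-0.20). Each had 1 probe. Cxcl14 read -0.17, 0.14, -0.39, 0.10 and -0.86 in HCC 1 to 5, and Gadd45g read -0.31, 0.04, -0.56, -0.13 and -0.84. Foxq1 was at -0.64 and Edn1 at -0.68 in HCC 5, and all other HCC lay between -0.19 and 0.06 at both. HCC 5 was the lowest HCC at all 4.

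Genes of liver metabolism and of secreted proteins had 83 probes of 41 of 49 listed genes. None passed limma, 0 had an unadjusted p below 0.05, and the median difference was -0.10. Before the border 35 of 36 genes were below -0.3 in HCC 5 and 22 in HCC 3. Beyond it 0 of 5 were in HCC 5 and 3 in HCC 3, again read beside the shares of all probes. The 5 distal genes were Nnt, a mitochondrial transhydrogenase gene, Mccc2 of leucine breakdown, the zinc transporter gene Slc30a5, the fatty acid elongase gene Elovl7 and Plpp1. Akr1c18, a hydroxysteroid dehydrogenase gene, had a difference of -0.27 and read -0.32, 0.12, -0.37, 0.01 and -0.38 in HCC. Nqo2, a quinone reductase gene, differed by -0.23 and Arsb, the lysosomal arylsulfatase B gene, by -0.23. Arsb, with 4 probes, was at -0.72 in HCC 5, -0.40 in HCC 3 and between 0.02 and 0.20 in the other HCC. Ctsl, the cathepsin L gene with 1 probe, had the opposite sign. It read 0.62 in HCC 2 and 0.35 in HCC 4 but -0.74 in HCC 5, and -0.16, -0.15 and -0.15 in the livers.

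Clustered families were all proximal except Naip, whose members encode sensors of bacterial proteins in the cytosol. None of their probes passed limma and 0 had an unadjusted p below 0.05. Median differences were -0.25 over 7 histone probes, -0.11 over 16 serpin B probes, -0.11 over 17 prolactin family probes and -0.10 over 13 cathepsin probes. For 23 pheromone and odorant receptor probes, 41 zinc finger probes and 11 Akr1c probes they were -0.09, -0.07 and -0.09. The 6 Naip probes had -0.02. In HCC 5 the Naip median was -0.20, whereas proximal families ran from -0.60 in the cathepsins to -0.41 in Akr1c. All 5 HCC lay below all 3 livers at 2 of the 7 histone probes and at 0 probes of the other families, where 0.538% of chromosome 13 probes and 3.22% of autosomal probes did. HCC 3 had -0.37 at Naip and from -0.42 to -0.10 in the proximal families. Members of these families have close relatives, so a probe may pick up DNA of several copies. T cell receptor gamma genes had 0 probes by name.

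The member that varied most over the 3 livers was H4c9 among histones, with a range of 0.47. It read 0.83, 0.40, 0.34, 0.85 and -0.67 in HCC 1 to 5. Ranges were 0.30 for Serpinb1a, 0.37 for Prl8a1, 0.47 for Vmn1r203, 0.53 for Cts6 and 0.31 for Naip5. They were larger for Akr1c13, at 1.00, and Zfp455, with 1 probe, at 1.97. Of the 2 Akr1c13 probes only 1 varied widely. Relative to the median of the part it read 0.89, -1.16 and 0.79 in unaffected livers 1 to 3, and the other read -0.30, 0.08 and 0.05. The median range over livers was 0.16 for a probe of the chromosome, and family medians ran from 0.10 for pheromone and odorant receptors to 0.21 for the prolactin family.

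Some single probes, picked for their distance in a liver, differed between mice far more than the mean of either part, as that choice ensures. The median probe had a range over livers of 0.16. Relative to the median of its part, a probe lay more than 1 away in at least 1 liver at 17 positions, 9 in unaffected liver 1 and 7 in each of the others. Against the chromosome median the count was also 17, or 1.02% of chromosome 13 probes, and 0.808% of autosomal probes met it. AK173092 was the lowest. It read -3.23, 0.08 and -4.37 in unaffected livers 1 to 3, and -3.58, -4.35, 0.61, -3.75 and -3.51 in HCC 1 to 5. All tissues of mice 3151 and 4033 were thus low, and both tissues of mouse 3760 were not. The next AK173092 probes on either side lay within -0.23 and 0.15 in every tissue.

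Mef2c, the gene of a MADS box transcription factor, had 3 probes, and only the last one was more than 1 away in a liver. It read 1.06, -0.87 and -2.85 in unaffected livers 1 to 3. HCC 1 and HCC 2 read 0.19 and 0.80, HCC 3 read 0.0056, and HCC 4 and HCC 5 read -2.75 and -2.51. The 2 other Mef2c probes lay between -0.26 and 0.31. A probe without a gene name 0.89 Mb before it had nearly the same pattern. In unaffected livers 1 to 3 it read 0.95, -0.81 and -3.48, and in HCC 1 to 5 it read 0.94, 0.74, -0.37, -2.51 and -2.98. Low readings at these positions marked the tissues of mouse 4033.

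The granzyme K probe AB032200 split the mice the other way. It read 0.60 in unaffected liver 1 and 0.67 and 0.55 in HCC 1 and HCC 2, but from -1.69 to -1.33 in the 5 tissues of mice 3760 and 4033. Paip1, the gene of a protein that binds the poly(A) binding protein, read -1.12, -0.58 and -0.77 in the tissues of mouse 3151 and from 0.90 to 1.41 in the others. At both probes the tissues of mouse 3151 did not overlap the rest. This female was also the mouse whose reference DNA was male, so animal and reference cannot be told apart there. A change of copy number and a sequence difference that weakens binding cannot be told apart at 1 probe, in mice of mixed background.

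By mean over a gene's probes, the largest ranges over livers were 1.97 for Zfp455, 1.59 for Paip1, 1.36 for AK085800, 1.25 for Mef2c and 1.20 for C330011K17Rik, now Zfp874a. Paip1 and Zfp874a had 2 probes each, and at both genes only 1 was more than 1 away in a liver. Relative to the median of the part, the other Paip1 probe read -0.07, -0.08 and 0.57 in unaffected livers 1 to 3. The other Zfp874a probe read -0.00067, 0.05 and -0.14. The zinc finger genes Zfp455 and Zfp874a were lowest in mouse 3760 when both orientations were averaged. In unaffected liver 1 the arrays disagreed, with -1.64 forward and 0.29 dye swap at Zfp455. The varying Zfp874a probe read -1.65 and 1.52 there. On forward arrays unaffected liver 2 read -0.75 and -1.01 at these probes, above unaffected liver 1, so the order of the livers depended on the orientation. Zfp874a read -1.12 in HCC 3 and -0.83 in unaffected liver 2, against 0.37 in unaffected liver 3. AK085800, with 1 probe, read 0.52, -0.72 and -0.84 in unaffected livers 1 to 3 and followed the same split by mouse in the tumours, with 0.37 and 0.74 in HCC 1 and HCC 2 and -0.94, -0.67 and -0.98 in HCC 3 to 5.

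Probes far out in a liver usually stayed so in the tumours of that mouse. Over 39 pairs of such a probe and a tumour of the same mouse, 30 had the sign of the liver and an absolute value above 0.5 (76.9%). Over 76 pairs with a tumour of another mouse 18 did (23.7%). Over all autosomes the shares were 74.4% and 28.2%. Whether the arrays of one mouse shared a reference animal is not given, so mouse and reference DNA cannot be told apart in this recurrence. All 7 probes of unaffected liver 2 recurred in HCC 3, and all 7 of unaffected liver 3 in both HCC 4 and HCC 5. Unaffected liver 1 was the exception, with 4 of 9 in HCC 1 and 5 of 9 in HCC 2. Its probes for Stard3nl, Cdyl, Rnf44 and Gfm2 were low mainly on the forward array. Stard3nl, for example, read -2.81 there and -0.35 on the dye-swap array, and Cdyl -3.37 and 0.67.

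**Figure D4:**
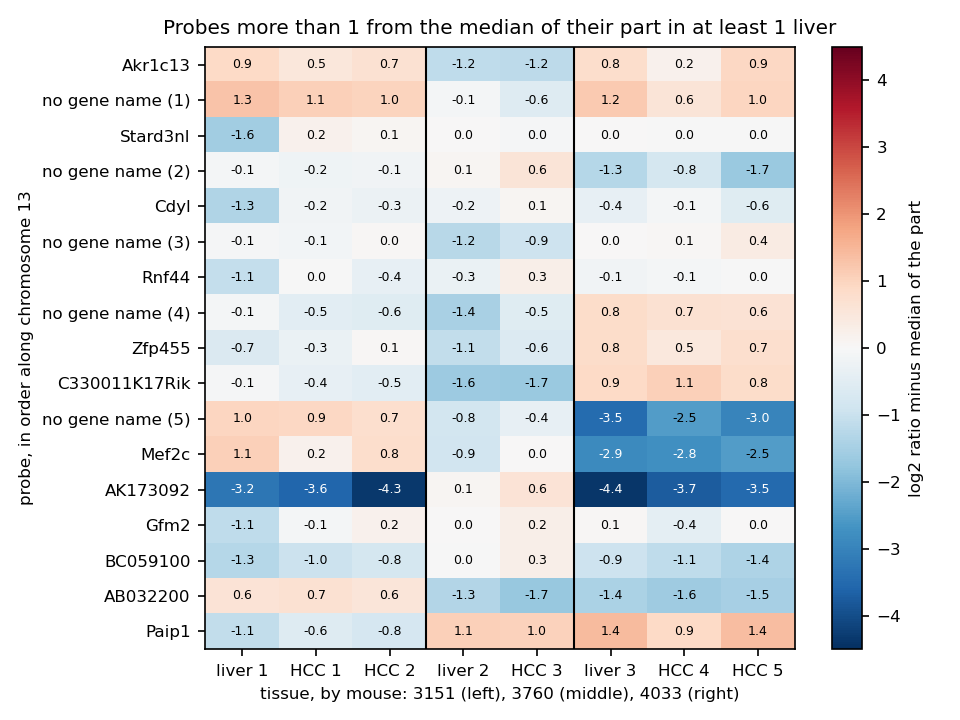
Log2 ratio minus the median of the part (colour and number) for the 17 chromosome 13 probes more than 1 away in at least 1 unaffected liver (rows, in order along the chromosome) in each tissue (columns, grouped by mouse between the black lines). AK173092 lies between -4.37 and -3.23 in every tissue of mice 3151 and 4033 and at 0.08 and 0.61 in those of mouse 3760.

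These probes also made up the short segments. Against the reference, segmentation gave 3, 3, 1, 5 and 9 segments in HCC 1 to 5 and 3, 7 and 8 in the livers. The penalty grows with the noise of a tissue, so segments are found more easily in quiet tissues. Noise was 0.11 in HCC 5 and 0.091 and 0.084 in unaffected livers 2 and 3, the tissues with most segments. The other tissues had 0.17 to 0.20, so the counts are not compared between tissues. Each of the 15 segments of at most 20 probes had a probe far out in a liver as its most extreme probe. In unaffected liver 3, for instance, 6 probes up to Mef2c averaged -1.04 relative to the part, with a median of -0.05. In unaffected liver 1 the 7 probes around AK173092 averaged -0.78 and 3 of them were past 0.5 on either side, with a mean of -0.37 when AK173092 was left out. Nothing of that length remained when a tumour was set against its own liver.

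Residual profiles, each probe minus the median of its part, were compared within and between mice. Pearson correlation over the 1673 probes, which share slides and sequence and are no replicates, ran from 0.23 to 0.73 over 7 pairs of tissues of one mouse. Over 21 pairs of tissues of different mice it ran from -0.26 to 0.26. The ranges overlapped. The medians were 0.45 and 0.13. Without the 17 probes the ranges were 0.05 to 0.37 and -0.32 to 0.22, with medians of 0.21 and 0.15.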

How the data were processed

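Genomic DNA of 8 tissues of 3 mice was hybridised on 15 Agilent 44K mouse arrays, held on 4 slides and scanned on 2 days. Intensity values are those the authors deposited, background-subtracted and dye-normalised by Agilent Feature Extraction 9.1.3.1 per the file headers. The authors' series matrix holds log10 ratios, and these deposited values matched the scanner files' LogRatio at all 43020 non-control spots once dye-swap arrays were turned. The build behind the probe positions is not given in the sources used here.

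From the intensities, log2 of tissue over reference was taken with dye-swap arrays turned. Control and outlier-marked spots were dropped, spots of one probe averaged, each array centred on its autosomal median, and the orientations of a tissue averaged to 1 replicate. In each array 0.191% to 2.31% of spots lay near background, and the number of tissues limits the precision. Tissues of one mouse are not independent, so p-values measure the spread between tissues only.

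Levels were compared with limma 3.58.1 (R 4.3.3) over 19 autosomes and 40726 probes at an adjusted p of 0.05, and the parts by exact two-sided permutation over 56 splits. Segments came from optimal partitioning (penalty 3, at least 5 probes), which was tested on simulated data, as was limma. The limma simulation used independent probes and shifts far larger than the group differences found here. It therefore checks the calculation and not the power. Alternatives covered background correction, centring, orientation, dim spots, single tissues, mouse, slide and scan day. Gene names matched the GRCm38.p6 table in 473 of 770 cases, and 85 more by an older symbol. Named are, per list, the 4 genes with the largest difference, the 5 probes with the smallest p, the 5 genes with the largest range over livers, genes at segment ends, and per family the member with the largest range over livers. Other genes were named after their values were seen. Members and lists were chosen with earlier results of these data known. Computations ran in Python 3.11.15 with scipy 1.17.1, numba 0.67.0, numpy 2.4.6 and pandas 2.3.3, and plots in matplotlib 3.10.9.

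Tissues of one mouse pair the groups. For chromosome 13 probes, deviations from the mean of the group had r from 0.17 to 0.38 between a tumour and its own liver and from -0.24 to -0.017 between mice. Deviations within a group cancel at each probe, which lowers r between mice, so its negative sign is not read. The residual profiles, without that step, had r from -0.26 to 0.26 between mice.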

Additional observations from a re-analysis of the deposited data

Results flagged for a closer look

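Among 28 measures examined over the 5 HCC (levels of chromosome 13 and its parts, and the named genes), 1 had a tissue far from the rest. Chance gives about 1 in 20 measures, so 1 of 28 is no excess. The measures also overlap, since all lie on 1 chromosome. Distal minus rest was 0.373 in HCC 5 and at most 0.042 in the other HCC, a gap of 0.84 of the whole range. The 99 Mb border was drawn from HCC 5 itself, so this distance is a description.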

How the results depend on the processing

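No group difference of chromosome 13 or of its parts passed its threshold under any alternative run, and 0 probes were called in each of 16 other fits. Adjusted limma p of the whole chromosome ran from 0.0505 (within scan day 1) to 0.933 over 21 alternatives, with the exact test for the one added later. Exact p ran from 0.25 to 1 for both parts over 23 alternatives. Of these exact tests, those within a scan day or with a block cannot reach 0.05, so their p-values say nothing about stability. Within day 2 the smallest p is 0.25, reached with the sign turned. The limma fits have no such floor. With 1 tissue left out at a time, the difference ran from -0.14 to 0.017 for the whole chromosome, from -0.15 to 0.016 for the part before 99 Mb, from -0.056 to 0.049 for the distal part and from 0.00092 to 0.10 for distal minus rest. Without HCC 5 the sign turned for the chromosome and both parts but not for distal minus rest, and without HCC 3 it turned for the distal part. Within scan day 2 the differences were 0.11 for the chromosome, 0.11 for the distal part and 0.11 for the rest. The cause was not tested. Leaving out the 17 probes that vary between livers, chosen after seeing the data, kept each difference on its side of 0.

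Breakpoints per HCC were 0.4. They were 0.8 at penalty 2, where HCC 2 had 2, and 0.2 with forward arrays alone, where the shallow step of HCC 5 was not found. With 1 HCC left out at a time they ran from 0 to 0.5, and without HCC 5 there were 0. With the mouse as a replicate block the difference was -0.10 for the chromosome (limma adjusted p = 0.713), -0.06 for the distal part, -0.12 for the rest and 0.06 for distal minus rest, and the block changed no call. With the slide as a block these were -0.20, -0.11, -0.22 and 0.11.

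HCC 3, on 1 array, had the highest probe noise at 0.20. The number of tissues, which come from 3 mice, limits every comparison of groups.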
